A study of Mus musculus with 4 samples.

Results

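The genes described here encode parts of the Nodal, Lefty and activin signalling pathway: the ligand Nodal, its co-receptor Tdgf1 (Cripto), the inhibitors Lefty1, Lefty2, Cer1, Fst and Smad7, the activin subunits Inhba and Inhbb, and the receptor Acvr2b. They were chosen by name, as all non-control probes whose RefSeq accession maps to one of these 10 genes. Probes of 9 genes were found, 10 probes in all of 41174 on the array, and Nodal itself was not analysed here. Of the 9 genes, 7 passed the filter on dim probes and were tested among 21754 genes. Inhba and Cer1 did not pass.

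Nodal and activin bind type II receptors such as Acvr2b together with a type I receptor, and Nodal also needs an EGF-CFC co-receptor such as Tdgf1. The receptors phosphorylate Smad2 and Smad3, which enter the nucleus with Smad4 and act with partners such as Foxh1. Lefty1, Lefty2 and Cer1 block the ligand outside the cell, follistatin (Fst) binds activins, and Smad7 blocks the receptors inside the cell. In mouse embryos this pathway patterns the epiblast, the primitive streak and the endoderm, and in pluripotent cells in culture the Lefty genes are among its direct targets.

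RNA came from D3 cells, a mouse embryonic stem cell line, that were transfected in suspension, seeded as embryoid bodies and cultured in serum without LIF, the cytokine that holds mouse stem cells undifferentiated. The silenced cells received siRNA against Pnpla6, which encodes neuropathy target esterase, and were collected at 96 h (2 samples) and 24 h (2 samples). The control cells were collected at the same times (2 samples each), and the labels do not say what they received. Each of 4 two-colour arrays carried silenced and control RNA of 1 time, with the silenced RNA in Cy3 on replicate 1 and in Cy5 on replicate 2. The labels do not say whether replicates came from separate cultures, so the spread between these samples may be technical. The p-values and intervals of the silencing effects do not measure the full spread between 2 arrays. They rest mostly on a variance shared over genes, and a dye term takes up the replicate difference that both times share.

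Between 62.5% and 68.7% of the spots were well above background in each of the 8 channels and none was saturated. The number of arrays, 2 at each time, limits the precision. Pnpla6 had normalised intensities of 1542 and 1314 in silenced cells at 96 h, against 1415 and 1417 in control cells. At 24 h Pnpla6 had 1109 and 910 in silenced cells, against 1838 and 1822 in control cells. The log2 ratio of silenced to control was 0.01 at 96 h (SE 0.06, limma adjusted p = 0.960) and -0.87 at 24 h (SE 0.06, adjusted p = 2.59e-11), where the target was 1.82-fold lower in silenced cells. A second, dimmer Pnpla6 probe had a mean log2 ratio of 0.00797 at 96 h and -0.57 at 24 h. Without the dye term described below, the 24 h value had an unadjusted p of 7.72e-05 and no gene passed the adjustment. All 10 markers of pluripotent cells were measured in all groups, with summed intensities of 347160 to 558570 in silenced cells and 283400 to 533510 in control cells.

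Promoter sequences, from 250 bases before to 50 bases after the gene's start, were taken from RefSeq (build GRCm38.p6) and were present for 6 of the 10 genes. Those of the activin subunit Inhbb, which had the largest silencing effect among the 7 tested genes at 96 h, and of the co-receptor Tdgf1 are shown, because they differ in the motifs of the pathway's own transcription factors. Both strands were searched for the SMAD box CAGAC and for the FOXH1 motif AATNNACA, and capitals mark the matches.
Inhbb, chr1:119422199-119422498, minus strand: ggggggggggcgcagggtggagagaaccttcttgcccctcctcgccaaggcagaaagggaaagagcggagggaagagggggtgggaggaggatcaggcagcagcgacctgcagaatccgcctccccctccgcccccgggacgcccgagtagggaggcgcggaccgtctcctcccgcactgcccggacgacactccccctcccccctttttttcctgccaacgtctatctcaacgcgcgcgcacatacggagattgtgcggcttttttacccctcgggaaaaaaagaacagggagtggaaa
Tdgf1, chr9:110946109-110946408, minus strand: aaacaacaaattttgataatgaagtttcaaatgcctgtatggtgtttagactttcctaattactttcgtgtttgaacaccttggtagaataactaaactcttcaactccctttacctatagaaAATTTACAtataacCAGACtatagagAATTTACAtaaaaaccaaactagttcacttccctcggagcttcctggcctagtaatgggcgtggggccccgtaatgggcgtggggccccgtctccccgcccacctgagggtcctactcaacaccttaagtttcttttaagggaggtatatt
In the Tdgf1 promoter a SMAD box at position -113 from the start lay between FOXH1 motifs at -127 and -101, without overlap. The Inhbb window held neither motif. Of the promoters not shown, those of Cer1 and Acvr2b each held 1 SMAD box and no FOXH1 motif, and those of Nodal and Inhba held neither. Promoters of Lefty1, Lefty2, Fst and Smad7 were not present. A SMAD box was found in 49.6% and a FOXH1 motif in 12.2% of 32851 mouse promoters of the same length. The matches describe letters only and show no binding.

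Of the 7 tested genes, 2 were higher in silenced than in control cells at 96 h, and both encode secreted proteins. Inhbb, the subunit of activin B, was 1.45-fold higher, and Lefty2, an inhibitor of Nodal, was 1.31-fold higher. These were 2 of 7, where 13.4% of all tested genes were called in either direction. At 24 h 0 of the 7 genes passed, where 0.372% of all tested genes did. These calls rest on a model with a term for dye orientation, which coincides with the replicate number. Without this replicate block 0 of 7 genes were called at 96 h, where 0.487% of all tested genes were.

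Inhbb had normalised intensities of 621 and 634 in silenced cells at 96 h, against 466 and 401 in control cells. The silenced samples lay above both control samples and were close to each other. At 24 h Inhbb had 1334 and 1470 in silenced cells, against 1522 and 1578 in control cells, so that the order was the opposite one. Its log2 ratio, silenced over control, was 0.41 and 0.66 on the arrays at 96 h, and -0.19 and -0.10 on those at 24 h. In the fit it was 0.54 at 96 h (SE 0.06, 95% interval 0.41 to 0.66, limma adjusted p = 6.94e-08) and -0.15 at 24 h (SE 0.06, adjusted p = 0.533). Without the replicate block the adjusted p at 96 h was 0.0782. The authors' deposited ratios, put through the same fit, gave a log2 ratio of 0.60 with an adjusted p of 0.175.

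A second, dimmer Inhbb probe did not show this difference. It had 90.9 and 91.3 in silenced cells at 96 h, against 104 and 84.7 in control cells, and its mean log2 ratio was -0.04. With both probes averaged the log2 ratio of Inhbb at 96 h was 0.25 (adjusted p = 0.0130). The brighter probe was the one tested, by the rule for genes with several probes.

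Lefty2 had normalised intensities of 565 and 532 in silenced cells at 96 h, against 406 and 429 in control cells. Both silenced samples lay above both control samples. At 24 h Lefty2 had 726 and 692 in silenced cells, against 589 and 688 in control cells, in the same order. Such a separation of 2 samples from 2 is not particular to called genes. It also held at 24 h for Inhbb, Tdgf1, Fst and Smad7, none of which passed there. The fitted log2 ratio was 0.39 at 96 h (SE 0.06, 95% interval 0.27 to 0.52, limma adjusted p = 1.83e-05) and 0.16 at 24 h (SE 0.06, adjusted p = 0.477). Without the replicate block the adjusted p at 96 h was 0.214, and with the authors' deposited ratios, put through the same fit, it was 0.178.

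Lefty1, the neighbour and close relative of Lefty2, did not follow it. It had normalised intensities of 2301 and 2166 in silenced cells at 96 h, against 2288 and 2682 in control cells. At 24 h Lefty1 had 2541 and 1957 in silenced cells, against 1738 and 2095 in control cells. The groups overlapped at both times, and in each of the 4 groups the Cy3 sample read higher than the Cy5 sample. The fitted log2 ratio was -0.15 at 96 h (SE 0.07, adjusted p = 0.135) and 0.22 at 24 h (SE 0.07, adjusted p = 0.156). Lefty1 and Lefty2 are closely similar paralogs, and how far each probe reads the other transcript was not tested.

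The remaining 4 tested genes did not pass the threshold at either time. Tdgf1, the Nodal co-receptor, had 6534 and 5884 in silenced cells at 96 h, against 5799 and 5980 in control cells, a log2 ratio of 0.07 (95% interval -0.05 to 0.20). Acvr2b, a type II receptor for activin and Nodal, had 730 and 683 in silenced cells at 96 h, against 718 and 683 in control cells, a log2 ratio of 0.01 (95% interval -0.13 to 0.15). Smad7, the intracellular inhibitor, had 760 and 1128 in silenced cells at 96 h, against 961 and 876 in control cells. Its arrays went opposite ways, with log2 ratios of -0.34 and 0.36, and the fitted value was 0.01 (95% interval -0.13 to 0.16). That interval leaves out both array values, so it does not describe the spread between the 2 arrays.

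Fst, which encodes the activin-binding protein follistatin, was dim at 96 h. It had 73.1 and 64.7 in silenced cells, of which 1 of 2 was well above background, against 77.0 and 78.5 in control cells. The silenced samples were the lower ones, but the log2 ratio of -0.18 did not pass the threshold (SE 0.06, 95% interval -0.31 to -0.05, adjusted p = 0.0639). At 24 h Fst had 237 and 234 in silenced cells, against 230 and 213 in control cells, a log2 ratio of 0.09 (SE 0.06, adjusted p = 0.868).

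At 24 h Tdgf1, Acvr2b and Smad7 did not pass either. Tdgf1 had 6596 and 6612 in silenced cells, against 6310 and 6337 in control cells, a log2 ratio of 0.06 (95% interval -0.07 to 0.19). Acvr2b had 734 and 874 in silenced cells, against 879 and 743 in control cells, a log2 ratio of -0.01 (95% interval -0.15 to 0.13). Its arrays had -0.26 and 0.23, both outside that interval. Smad7 had 863 and 931 in silenced cells, against 968 and 955 in control cells, a log2 ratio of -0.10 (95% interval -0.25 to 0.04).

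Inhba, the subunit of activin A, and Cer1 were not well above background in any of the 8 channels. Their median signals minus the local background were between -4 and 10.5 for Inhba and between -3 and 13 for Cer1, on the scanner's scale, so neither has a fold change. Over the 7 tested genes the median log2 ratio was 0.01 at 96 h and 0.06 at 24 h, beside 0.000993 and 0.000663 over all tested genes.

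**Figure D1:**
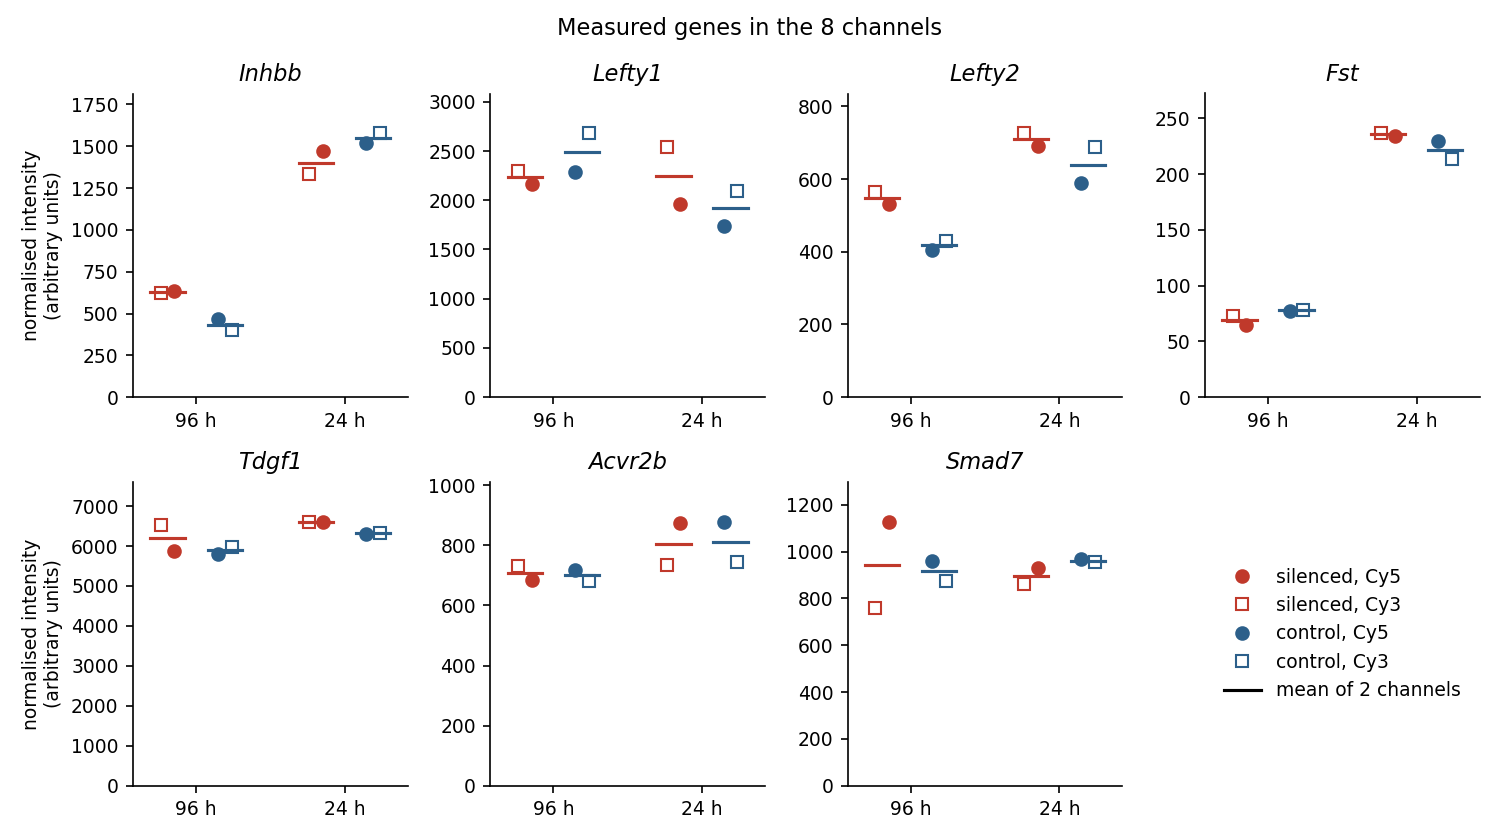
Normalised intensity (linear axis from 0, arbitrary units) of the 7 tested genes in silenced and control cells at 96 h and 24 h. Each point is 1 channel, filled for Cy5 and open for Cy3, and each line is the mean of 2 channels. At 96 h both silenced samples of Inhbb and of Lefty2 lie above both control samples. At 24 h, where no gene of these was called, those of Lefty2, Tdgf1 and Fst also lie above, and those of Inhbb and Smad7 below. Inhbb, Lefty2 and Fst are lower at 96 h than at 24 h in both kinds of cells.

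**Figure D2:**
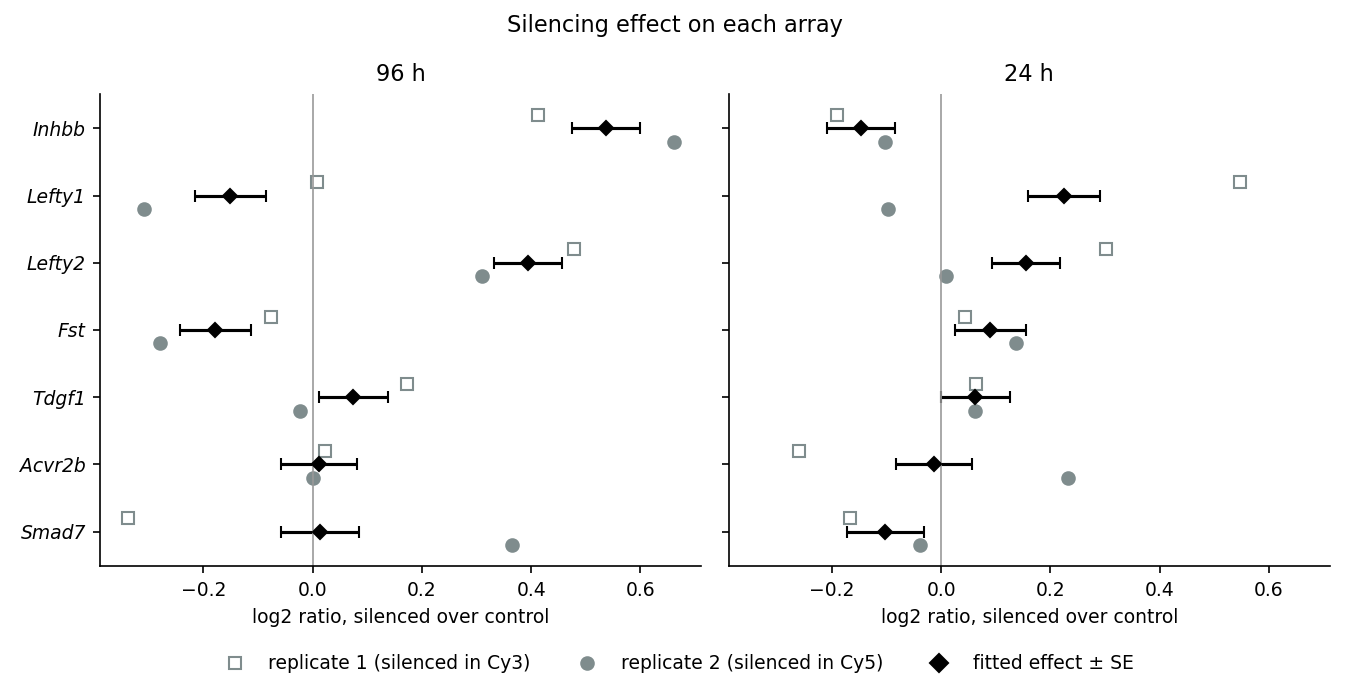
Log2 ratio of silenced to control cells on each of the 4 arrays, with open squares for replicate 1 and filled circles for replicate 2, and the fitted effect with its SE as diamonds. Inhbb at 96 h (0.41 and 0.66) and Lefty2 at 96 h (0.48 and 0.31) are above 0 on both arrays, while Smad7 at 96 h falls on either side of 0 (-0.34 and 0.36).

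The silencing effect differed between the times for 2 of the 7 genes, against 6.92% of all tested genes. For Inhbb the log2 ratio was 0.68 higher at 96 h than at 24 h (SE 0.09, limma adjusted p = 1.27e-06). This holds for its brighter probe, since the dimmer one had mean log2 ratios of -0.04 at 96 h and 0.05 at 24 h, and with both averaged the difference of Inhbb was 0.30 (adjusted p = 0.0525). For Lefty1 it was lower at 96 h by 0.38 on the log2 scale (difference -0.38, SE 0.09, adjusted p = 0.0074). The Lefty1 value rests on 24 h replicate 1, whose log2 ratio was 0.55 against -0.10 on the other 24 h array. Without that array the difference was -0.05. Lefty2, with a difference of 0.24 (SE 0.09, adjusted p = 0.108), did not pass. Without the replicate block 0 of 7 genes passed, and 0% of all tested genes did, although 1297 genes then had an unadjusted p under 0.05. The adjusted p was then 0.244 for Inhbb and 0.9996 for Lefty1.

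Inhbb, Fst and Lefty2 were lower at 96 h than at 24 h in both silenced and control cells. They were 3 of 7 tested genes in the silenced cells, where 37.8% of all tested genes changed, and 3 of 7 in the control cells, where 36.8% changed. The shares of the pathway genes that changed are close to those of all genes. In such bulk samples, fewer cells of a type and less RNA per cell cannot be told apart.

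The log2 change of Inhbb at 96 h against 24 h was -1.16 in silenced cells (SE 0.11, limma adjusted p = 0.00023) and -1.84 in control cells (SE 0.11, adjusted p = 3.22e-05). As folds, Inhbb was 2.23-fold lower at 96 h in silenced cells and 3.58-fold lower in control cells. Its dimmer probe was lower at 96 h too, by differences of -0.71 in silenced cells and -0.62 in control cells. The larger fall in control cells was thus seen with the brighter probe only. The mean intensity of Inhbb at 96 h was 627 ± 9.33 in silenced cells and 434 ± 46.4 in control cells, and at 24 h it was 1402 ± 95.8 in silenced cells and 1550 ± 39.8 in control cells (SD, n = 2 each). With the brighter probe its level was thus highest in control cells at 24 h and lowest in control cells at 96 h, with the silenced cells between. The groups at 24 h are neighbours in this order that did not pass the test, and those at 96 h passed it. The dimmer probe did not show this order. Its silenced samples lay between its control samples at 24 h (153 and 145 against 166 and 126) and at 96 h (90.9 and 91.3 against 104 and 84.7).

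Fst had a log2 change of -1.78 in silenced cells (SE 0.15, limma adjusted p = 0.000118) and of -1.51 in control cells (SE 0.15, adjusted p = 0.000243). An offset of 50 was added to all intensities, and this compresses the change of a gene that is dim at 96 h. With an offset of 16 the changes were -2.53 in silenced cells and -2.09 in control cells, and with the scanner's processed signals -4.49 and -3.60.

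Lefty2 had a log2 change of -0.37 in silenced cells (SE 0.10, limma adjusted p = 0.0217) and of -0.61 in control cells (SE 0.10, adjusted p = 0.0026). Lefty1 did not move with it. Its log2 change was 0.00143 in silenced cells (SE 0.16, adjusted p = 0.995) and 0.38 in control cells (SE 0.16, adjusted p = 0.101). Tdgf1 changed by -0.09 in silenced cells (95% interval -0.36 to 0.18) and by -0.10 in control cells (95% interval -0.37 to 0.16), on the log2 scale. For Acvr2b and Smad7 the log2 changes lay between -0.21 and 0.05 with an SE of 0.22 to 0.25, so that changes of that size were not detectable here. The median log2 change over the 7 genes was -0.18 in silenced and -0.21 in control cells, beside -0.03 in both over all tested genes.

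Both 24 h arrays shared a slide with 96 h replicate 1, while 96 h replicate 2 lay on another slide. Within the first slide, the log2 change of Inhbb was -1.17 in silenced and -1.77 in control cells, that of Fst -1.64 and -1.52 in the same order of cells, and that of Lefty2 -0.41 and -0.59. All 6 stayed past the threshold there and with slide as a fixed block.

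**Figure D3:**
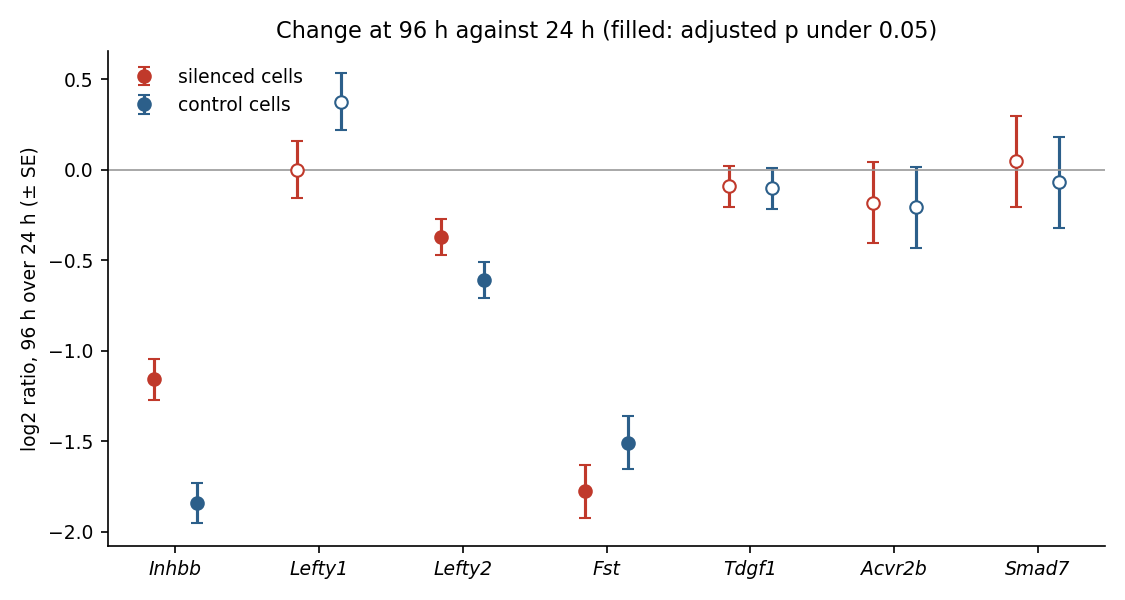
Log2 ratio of 96 h to 24 h with its SE for the 7 tested genes in silenced cells (left of each pair) and control cells. Filled points passed the adjusted p threshold of 0.05: Inhbb (-1.16 and -1.84), Lefty2 (-0.37 and -0.61) and Fst (-1.78 and -1.51).

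Over the 8 channels, which share 4 arrays and 2 times, the log2 intensities of Inhbb and Fst had a Pearson r of 0.94, and those of Lefty2 and Inhbb one of 0.90. Lefty1 ran against most of the others, with r of -0.35 with Lefty2 and -0.81 with Acvr2b. No dye term entered these correlations. Lefty1 read higher in Cy3 in every group, while Acvr2b at 24 h read higher in Cy5 (879 and 874 against 734 and 743). The part of dye in the r values was not tested. Among 12926 other genes, those closest to Lefty2 were Scube2 (r of 0.979), Myl2 (0.977) and Fhod3 (0.976), and 263 genes had an r over 0.9. The closest to Lefty1 were Poglut3 (0.960), Gsdmc (0.939) and Mpp1 (0.938), and 7 genes had an r over 0.9. Those closest to Tdgf1 were Ager (0.976), Nub1 (0.953) and Trim45 (0.946).

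Of 41 further genes of the pathway reported here, 38 had probes and 35 were tested. In silenced cells at 96 h 2 were higher and 1 was lower than in control cells, and 32 did not pass, where 13.4% of all tested genes were called. The median log2 ratio of these 35 genes was 0.02. None of the 35 passed at 24 h, where 0.372% of all tested genes did.

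Among the other ligands and their processing enzymes, 2 of 5 tested genes were higher in silenced cells at 96 h, beside 13.4% of all tested genes called. Inha, the inhibin alpha subunit that pairs with activin beta subunits to form inhibins, had 190 and 214 in silenced cells at 96 h, against 179 and 163 in control cells. Its log2 ratio was 0.24 (SE 0.06, limma adjusted p = 0.0089), and it was 0.08 and 0.39 on the 2 arrays. A second Inha probe, too dim to pass the filter, did not show this difference, with a mean log2 ratio of 0.0016 at 96 h. It was well above background in 3 of the 8 channels. Gdf1, a ligand that forms heterodimers with Nodal, had 3655 and 3352 in silenced cells at 96 h, against 3150 and 2972 in control cells (log2 ratio 0.19, SE 0.06, adjusted p = 0.0316). Gdf1 shares a bicistronic transcript with Cers1, and these genes cannot be told apart here. Neither call held without the replicate block, with adjusted p of 0.476 for Inha and 0.445 for Gdf1.

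With time, 4 of the 5 genes of this list changed in both kinds of cells, where 37.8% of all tested genes changed in silenced and 36.8% in control cells. Gdf1 was higher at 96 h than at 24 h, by a log2 change of 2.02 in silenced and 1.88 in control cells (SE 0.10 each). Furin, a protease that cleaves the precursors of these ligands, had log2 changes of 1.22 in both. Gdf3, a Nodal-like ligand of pluripotent cells, was lower, at -0.77 in silenced and -0.90 in control cells. Inha was higher at 96 h, at 1.02 in silenced and 0.64 in control cells. Its second, dim probe did not show this rise, with -0.05 in both. Gdf11, the other tested gene of the list, had log2 changes of 0.03 in silenced and -0.02 in control cells.

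No receptor or co-receptor and no Smad or Smad partner passed at 96 h between silenced and control cells, out of 5 and 6 tested genes. Of all tested genes 13.4% were called there. The log2 ratios lay between 0.04 and 0.12 for the receptors and between -0.11 and 0.02 for the Smads. With time, 37.8% of all tested genes changed in silenced and 36.8% in control cells. Of the 5 receptors and co-receptors 1 changed, Acvr1, a type I receptor, higher at 0.44 in silenced and 0.36 in control cells. The type I receptor Acvr1b did not pass, at 0.18 in silenced and 0.05 in control cells, and Acvr1c was not tested. Of the 6 Smads and partners 1 was lower in both, and 2 were higher and passed the threshold in control cells only. Smad2, which carries the signal of Nodal and activin, was lower, at -0.64 in silenced and -0.57 in control cells. Smad3, which carries the same signal, was higher in control cells at 0.38, and Drap1 at 0.30. In silenced cells Smad3 had 0.32 (limma adjusted p = 0.0728) and Drap1 0.21 (adjusted p = 0.129). The silencing effect of neither gene differed between the times past the threshold. A second, dimmer Smad3 probe had -0.02 in control cells.

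Of 11 inhibitors 1 was lower in silenced cells at 96 h, where 13.4% of all tested genes were called. Smurf2, a ubiquitin ligase that targets receptors and Smads, had a log2 ratio of -0.21 (SE 0.06, limma adjusted p = 0.0203). It had 482 and 331 in silenced cells at 96 h, against 471 and 456 in control cells, so the difference came from 1 array, and without 96 h replicate 2 the log2 ratio was 0.03. The silencing effect of Skil, a nuclear repressor of Smads, was lower at 96 h than at 24 h (difference -0.35, SE 0.09, adjusted p = 0.0140), and that of Dand5, an extracellular Nodal inhibitor, was lower too (difference -0.28, SE 0.09, adjusted p = 0.0450). A second Skil probe gave a difference of -0.15. With time, 2 of the 11 were higher and 2 lower in silenced cells, where 37.8% of all tested genes changed. In control cells 2 were higher and 1 lower, where 36.8% changed. Bambi, a decoy receptor, was lower in both, at -0.61 in silenced and -0.56 in control cells. Tgif2 was higher in both, at 0.41 and 0.43. Only in silenced cells did Smurf1 (0.39) and Dand5 (-0.68) pass, and only in control cells Skil (0.48). Where they did not pass, Smurf1 had 0.27 and Dand5 -0.40 in control cells, and Skil 0.13 in silenced cells. Second probes went the other way for Smurf1 (-0.16 in silenced cells) and Skil (-0.33 in control cells).

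Tested and reported here were 8 target genes of Nodal in the primitive streak and endoderm. At 96 h 0 of the 8 passed between silenced and control cells in limma with the dye term, where 13.4% of all tested genes were called. Without the dye term 0 passed too, where 0.487% were called. With it, 2 of the 8 had an unadjusted p under 0.05. These were Mesp1, a factor of the early mesoderm, with a log2 ratio of 0.17 (SE 0.07, adjusted p = 0.0845), and T (Brachyury), a T-box gene of the streak, with -0.14 (SE 0.06, adjusted p = 0.158). Mesp1 and T were dim, each well above background in 6 of the 8 channels. At 96 h Mesp1 had 72.8 and 73.8 in silenced cells, against 65.2 and 65.2 in control cells. T had 70.2 and 70.3 in silenced cells, against 78.7 and 76.0 in control cells. Eomes, another T-box gene of the streak, had 134 and 135 in silenced cells at 96 h, against 134 and 134 in control cells. Mixl1 was not tested, being too dim.

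With time, 1 of these 8 genes changed in both kinds of cells, where 37.8% of all tested genes changed in silenced and 36.8% in control cells. Otx2, a homeobox gene of the epiblast and anterior endoderm, had 1529 and 1604 in silenced cells at 96 h, against 862 and 853 at 24 h, a log2 change of 0.87 (SE 0.11, adjusted p = 0.000746). In control cells Otx2 had 1414 and 1758 at 96 h, against 685 and 844 at 24 h, a log2 change of 1.05 (SE 0.11, adjusted p = 0.000315). Its samples at the 2 times did not overlap, and its log2 silencing effect was -0.01 at 96 h.

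**Figure D4:**
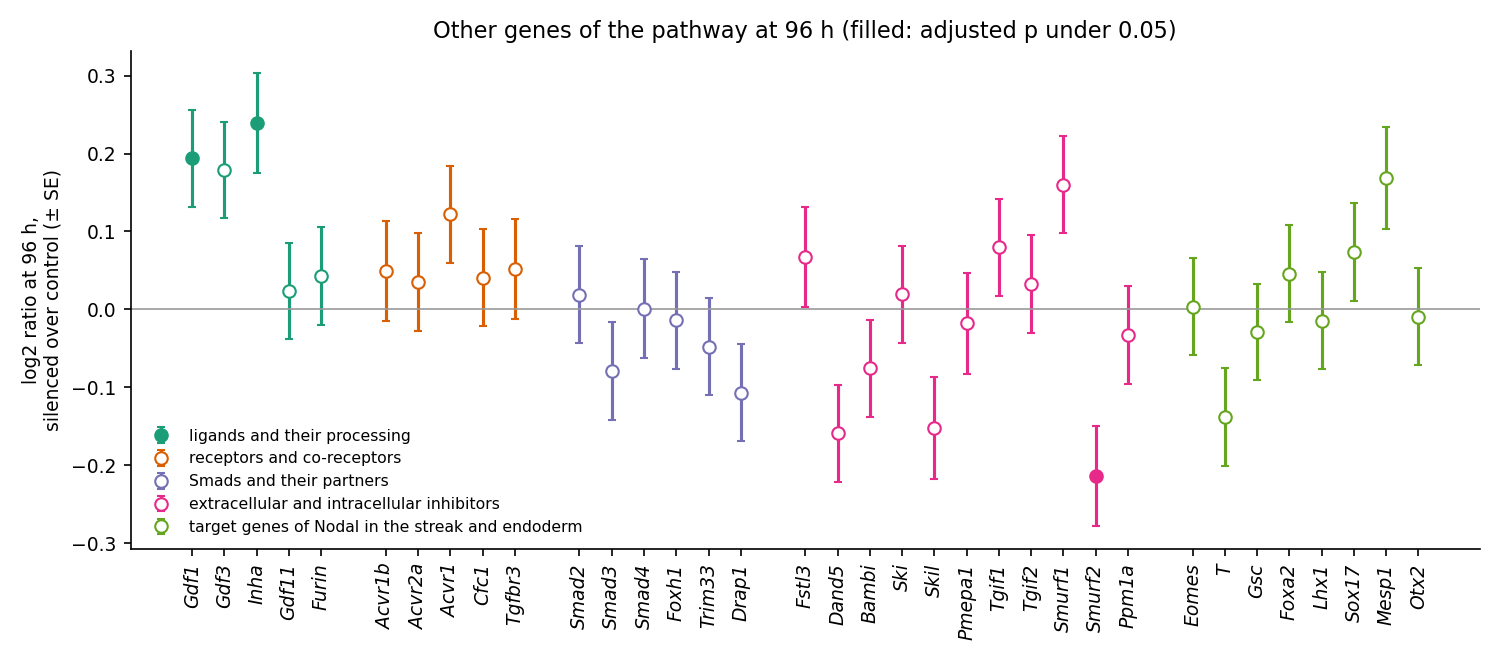
Log2 ratio of silenced to control cells at 96 h with its SE for 35 other tested genes of the pathway, coloured by role. Filled points passed the adjusted p threshold of 0.05: Gdf1 (0.19), Inha (0.24) and Smurf2 (-0.21).

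Markers of the cell types that embryoid bodies can hold were set beside these values at 96 h, where 13.4% of all tested genes were called. Of 10 markers of pluripotent cells 7 were higher and 1 lower in silenced cells, with summed intensities of 347160 and 482820 in silenced cells, against 462960 and 283400 in control cells. These sums went with the dye, being higher in the Cy5 sample on both arrays. The lower marker, Pou5f1, had log2 ratios of 0.0065 and -2.11 on the arrays, and Dppa5a, counted as higher, had -0.84 and 1.26. Of 8 tested markers of epiblast and primitive streak 4 were lower. These were Fgf5 (log2 ratio -0.69), Dnmt3b (-0.64), Pou3f1 (-0.63) and Wnt3 (-0.64). T (-0.14), Eomes (0.0036), Gsc (-0.03) and Mesp1 (0.17) did not pass. The summed intensities of the 8 were 9182 and 9509 in silenced cells, against 14118 and 14682 in control cells. Of 10 tested visceral endoderm markers 2 were higher, with sums of 1882 and 1872 in silenced cells, against 1644 and 1595 in control cells, while the defining markers Ttr and Apoa1 were not above background. Of 5 tested feeder fibroblast markers 4 were lower, with sums of 1776 and 1748 in silenced cells, against 2444 and 2227 in control cells, while Col3a1, Postn and Lum were not above background. Of 6 tested trophoblast markers 2 were lower, the keratins Krt8 (log2 ratio -0.78) and Krt18 (-0.22). Cdx2 (-0.0048), Tfap2c (0.09), Ascl2 (0.05) and Hand1 (-0.14) did not pass, and Elf5 was not above background. The sums over the 6 were 35333 and 37041 in silenced cells, against 42693 and 42280 in control cells. Of 6 neural markers 1 was higher and 2 were lower, with sums of 2638 and 2661 in silenced cells, against 2956 and 2884 in control cells. Without the replicate block, 0.487% of all tested genes were called, and of the tested markers 0 of 10 for pluripotent cells, 2 of 8 for epiblast and streak, 1 of 10 for visceral endoderm, 1 of 5 for feeder fibroblasts, 0 of 6 for trophoblast and 2 of 6 for neural cells. The part of these cell types in the differences of Inhbb and Lefty2 was not tested.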

How the data were processed

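RNA of D3 cells (200 ng, per the labels) was compared on 4 two-colour Agilent arrays. Per the file headers, the authors used Feature Extraction 10.7.1.1, and the submitters' processing notes name limma. In the deposited scanner files, median spot and background signals are raw intensity, and processed signals are intensity that the software had background-subtracted and dye-normalised. The deposited log ratio is log10 of red over green, and its deposited p-value, from the error model of 1 array, was not used. The authors' table of log10 ratios runs from silenced to control and equals the scanner's within 4.97e-06 once swapped dyes are turned. The array build is not that of the RefSeq table, so no probe coordinates are given.

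With R 4.3.3 and limma 3.58.1, median signals were corrected with normexp (offset 50) and normalised by loess within arrays, with control spots at weight 0. Probes had to be well above background on both arrays of 1 RNA group (28082 of 41174), and the brightest probe of a gene was used. Silencing effects came from log2 ratios on 4 arrays, with a mean per time and a dye term. The dye term coincides with the replicate number, so it is the replicate block. Deviations of same-numbered arrays had a correlation of 0.696 between the times. The fit leaves 1 residual degree of freedom, with 33.2 prior ones shared over genes. Changes with time came from single channels after Aquantile (lmscFit, dye term, intraspot correlation 0.896), the normalised intensities given. Tests were two-sided, with Benjamini-Hochberg adjusted p under 0.05 over 21754 genes, 13135 of them with a symbol. The fits were run on simulated data. For the ratios these data held normal noise and a dye bias of the form that is fitted. They therefore do not test how far the silencing calls rest on the dye term.

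Named genes were all listed genes with all probes, Pnpla6, of each further list up to 4 genes a comparison by smallest adjusted p (2 where none passed), and the 3 genes closest in correlation. The genes and lists were chosen with earlier results of these data known, and 1 gene of the target list is not reported here. Alternatives were another offset, median centring, the authors' ratios or processed signals, other probe filters, averaged probes, no dye term, a replicate or slide block, and each array left out.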

Additional observations from a re-analysis of the deposited data

Results flagged for a closer look

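The silencing effect (log2 of silenced over control) was tested for a difference between 96 h and 24 h, and 2 of the 7 pathway genes passed that test with the dye term. For Inhbb the value at 96 h minus that at 24 h was 0.68 (0.54 at 96 h, -0.15 at 24 h) with its brighter probe. Its dimmer probe had -0.04 at 96 h and 0.05 at 24 h, and with both averaged the difference was 0.30 and did not pass. For Lefty1 it was -0.38 (-0.15 at 96 h, 0.22 at 24 h).

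Of the other pathway genes, Inha had a difference of 0.38, Dand5 of -0.28 and Skil of -0.35. Second probes gave -0.0003 for Inha, where that probe was too dim to pass the filter, and -0.15 for Skil. The silenced gene Pnpla6 had a difference of 0.87, being lower in silenced cells at 24 h (log2 ratio -0.87) and at 0.01 at 96 h. None of these 6 genes passed for the difference without the replicate block.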

How the results depend on the processing

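The falls of Inhbb, Lefty2 and Fst between 24 h and 96 h passed under every alternative run, in both kinds of cells, except that Fst could not be tested where every channel had to be above background. Their log2 changes ranged from -1.21 to -0.98 (Inhbb), -0.50 to -0.31 (Lefty2) and -4.49 to -1.64 (Fst) in silenced cells, and from -1.97 to -1.28, -0.79 to -0.53 and -3.60 to -1.42 in control cells. The silencing effects were less stable. Without the replicate block, silencing changed 106 genes at 96 h, 0 at 24 h and 0 in the comparison of times, and 0 of the pathway's 7 genes in each of these. With the authors' ratios all of these counts were 0, while 3853, 1577 and 2953 genes had an unadjusted p under 0.05 in limma. An offset of 16 gave 1016, 0 and 271 genes, and 1 pathway gene for the difference. Median centring gave 1798, 42 and 737 genes, and 1 pathway gene for the difference; of the 1798, 1126 were higher and 672 lower, where loess gave 1438 and 1480. Averaged probes gave 9 genes at 24 h and 957 for the difference, and 1 pathway gene. With the replicate block as a further term, 12676 genes changed with time in silenced and 12468 in control cells. The cause of these moves was not tested.

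With arrays left out in turn, the ratio fits lose the dye term by construction. The silencing calls were 29 to 114 genes at 96 h, 0 at 24 h and 0 when times were compared, with 0 pathway genes called in each left-out fit. With time, 10074 to 12502 genes and 3 to 5 pathway genes changed in silenced cells, and 10140 to 12084 genes and 4 to 5 pathway genes in control cells. Values of Lefty1, Tdgf1, Acvr2b and Smad7 that had not passed turned sign, among them Lefty1 at 24 h (0.22). With 1 array of a time left out, the silencing effect at 96 h ranged from -0.31 to 0.0078 for Lefty1, -0.024 to 0.17 for Tdgf1 and -0.34 to 0.36 for Smad7. At 24 h it ranged from -0.10 to 0.55 for Lefty1 and from -0.26 to 0.23 for Acvr2b. The difference between times ranged from -0.086 to 0.11 for Tdgf1, -0.22 to 0.27 for Acvr2b and -0.24 to 0.47 for Smad7. The change with time ranged from -0.11 to 0.12 for Lefty1 and -0.21 to 0.30 for Smad7 in silenced cells, and from -0.23 to 0.10 for Smad7 in control cells. In silenced cells the change of Lefty1 with time was -0.016 with processed signals and -0.034 with a slide block, and that of Smad7 was -0.062 with a slide block.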
